A study of Homo sapiens with 6 samples.

Results

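Fibronectin, periostin and 8 other proteins of the fibrous and matricellular extracellular matrix were followed in H69AR, a chemoresistant cell line that was obtained from the small cell lung cancer line NCI-H69 by selection with doxorubicin. The 10 genes are FN1, POSTN, SPARC, THBS1, THBS2, TNC, TGFBI, FBN1, FBN2 and VCAN, out of 60605 gene identifiers in the count table. They were chosen by function with the differences between Supinoxin and untreated cells in these same libraries already known. Their counts, fold changes and calls are therefore given as a description, without p-values, and support no other statement. RNA sequencing compared 3 libraries of cells given 70 nM Supinoxin (RX-5902, a drug that the series title links to the RNA helicase DDX5) with 3 libraries of cells given no drug. All cells were wild type per the labels and were grown in RPMI-1640 with 20% fetal bovine serum and antibiotics at 37 C and 5% CO2, and the treated ones were confluent when the drug was added. All libraries come from this single line. Whether replicates were grown separately is not stated, so errors and p-values cover the spread among these 6 libraries alone, and that spread may be technical. The stated aim of the series was to find the molecular route of the drug's action in this cancer.

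Fibronectin is a large adhesive glycoprotein that cells assemble into fibrils through integrins, and the fibrillins FBN1 and FBN2 form the microfibrils on which elastic fibres are built. Matricellular proteins such as the thrombospondins (THBS1, THBS2), tenascin C (TNC), SPARC, periostin (POSTN) and TGFBI sit in the matrix but mainly tune adhesion and growth factor signals, while versican (VCAN) is a large proteoglycan that binds hyaluronan. Many of these genes respond to TGF-beta, and thrombospondin 1 and the fibrillin microfibrils in turn take part in activating or storing latent TGF-beta.

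Total counts ran from 34966826 to 36039854 in the Supinoxin libraries and from 30136963 to 39402804 in the untreated ones, and 1 CPM (counts scaled to library size by the TMM method) stood for 30.7 to 38.3 counts. Untreated libraries differed more among themselves: the chi-square per degree of freedom between replicates was 29.1 to 117, against 4.41 to 7.43 among Supinoxin libraries. Untreated replicate 1 stood apart on the first principal component of log2 CPM, at 79.6 against 45.4 and 44.4 for the other untreated libraries and -58.8 to -54.5 with Supinoxin. Fold changes moved with exonic length: their median (log2) was -0.47 in the 3137 tested coding genes of lowest length and 0.35 in the 3137 of highest length, of which 43.0% were called higher. FN1, FBN1, FBN2, VCAN and THBS1 are in that group of highest length, TGFBI and POSTN are of intermediate length, and SPARC is the gene of lowest length among the 10, at 4638 exonic bases. The labelled cell type is epithelial. Of 8 epithelial markers, KRT8, KRT7 and KRT18 had at least 943 counts in every library and EPCAM, CLDN4 and CLDN7 fewer, while KRT19 had 0 to 3 counts and the cadherin gene CDH1 1 to 6. Of 8 neuroendocrine markers, 6 passed the filter on low counts, among them DLL3, INSM1 and SYP at 34.8, 19.6 and 6.73 CPM in untreated cells, and NEUROD1 was listed at 0.

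With Supinoxin, 6 of the 10 genes stood several-fold higher: FN1 9.63-fold, POSTN 8.70-fold, VCAN 4.80-fold, THBS1 4.61-fold, FBN2 4.47-fold and FBN1 3.70-fold. SPARC was 1.59-fold lower, TGFBI lay within the spread between libraries, and TNC and THBS2 were listed at 0 in every library. Of the 8 genes that passed the filter on low counts, 6 were called higher and 1 lower by edgeR's quasi-likelihood test (Benjamini-Hochberg adjusted p below 0.05 over 15947 genes). In the same fit 23.4% of all tested genes were called higher and 25.2% lower, and nothing is read from the members' counts, since this comparison was known when they were chosen. The groups did not overlap for 7 of the 8, with Supinoxin above for 6 and below for 1, and over all tested genes this held for 31.3% above and 31.1% below. For the 8 genes the log2 fold changes had a median of 2.18, and for all tested genes -0.0004. In bulk RNA, fewer cells expressing a gene and less RNA per cell cannot be told apart.

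**Figure D1:**
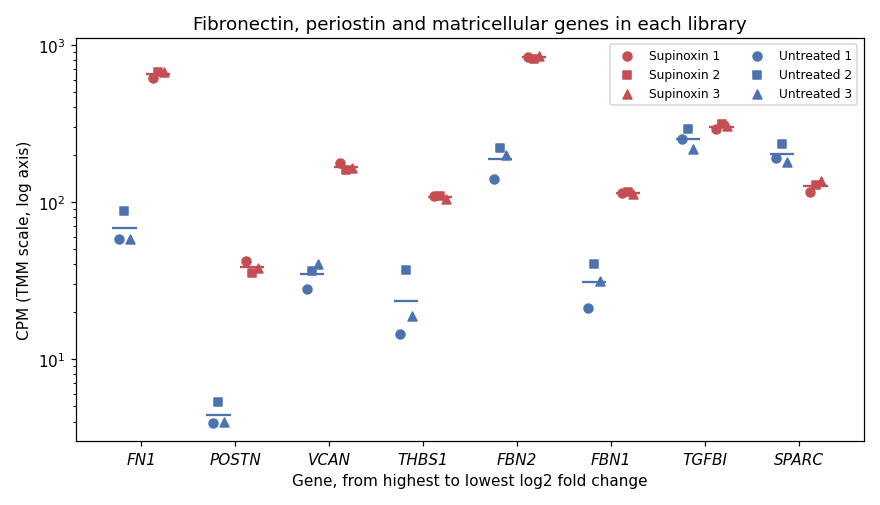
Level of each gene in CPM (log axis) in the 3 untreated (blue) and 3 Supinoxin (red) libraries, with marker shapes for replicates 1 to 3 and lines for group means. The 6 genes whose groups are separate with Supinoxin above run from FN1 (67.9 against 654 CPM) to FBN1 (30.9 against 114 CPM); TGFBI overlaps and SPARC is lower.

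FN1 (ENSG00000115414, GRCh38 chromosome 2, 215360440 to 215436073, minus strand) encodes fibronectin. Its level was 58.1, 87.6 and 58.1 CPM in untreated replicates 1, 2 and 3 and 619, 669 and 675 CPM with Supinoxin. The lowest Supinoxin library lay 7.07-fold above the highest untreated one, and the means were 654 ± 30.7 against 67.9 ± 17.0 CPM (SD, n = 3 each). In the ranking of log2 fold changes FN1, at 3.27 (SE 0.19), was the 44th highest of the 15947 genes tested. In counts, FN1 went from 1783 to 3055 per untreated library to 23680 to 25225 per Supinoxin library, so counting error is small beside the spread between libraries.

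POSTN (ENSG00000133110, chromosome 13, 37562583 to 37598844, minus strand) encodes periostin, a secreted protein that binds integrins and fibronectin and promotes collagen assembly. Untreated libraries held 3.94, 5.33 and 3.95 CPM, which is 121 to 186 counts each, and Supinoxin libraries 42.0, 35.4 and 37.8 CPM. The groups stood far apart, by 6.64-fold between their nearest libraries. The log2 fold change was 3.12 (SE 0.17), close to that of FN1, although POSTN was the gene of lowest level among the 8 in untreated cells.

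The bases before the annotated starts of FN1, POSTN and THBS1 are shown because these are the fibronectin gene, the gene nearest to it in fold change, and the gene whose untreated libraries varied most, and because their sequences differ in kind. The windows hold the 250 bases before each start in RefSeq (GRCh38.p14), written 5′ to 3′ on the gene's strand: FN1 at chr2:215436069-215436318, minus strand; POSTN at chr13:37598769-37599018, minus strand; THBS1 at chr15:39580829-39581078, plus strand. Capitals mark motif matches. The TATA element was searched as TATAAA on the gene's own strand. All other motifs were searched on both strands. The cyclic AMP response element was TGACGTCA, and the element bound by AP-1 factors was searched as TGANTCA. For TEAD factors the letters were GGAATG. The GC box known from SP1 binding was searched as GGGCGG. The pentamer CCAAT was searched under its own name.
FN1: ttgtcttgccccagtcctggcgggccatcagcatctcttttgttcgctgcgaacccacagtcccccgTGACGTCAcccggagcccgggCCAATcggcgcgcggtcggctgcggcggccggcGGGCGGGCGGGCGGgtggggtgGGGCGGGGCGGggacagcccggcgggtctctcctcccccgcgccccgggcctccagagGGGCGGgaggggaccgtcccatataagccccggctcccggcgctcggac
POSTN: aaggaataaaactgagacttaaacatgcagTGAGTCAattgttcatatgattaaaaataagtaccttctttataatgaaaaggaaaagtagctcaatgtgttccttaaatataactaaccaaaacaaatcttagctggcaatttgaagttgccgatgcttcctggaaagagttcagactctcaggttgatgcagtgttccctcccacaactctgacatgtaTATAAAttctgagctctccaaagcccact
THBS1: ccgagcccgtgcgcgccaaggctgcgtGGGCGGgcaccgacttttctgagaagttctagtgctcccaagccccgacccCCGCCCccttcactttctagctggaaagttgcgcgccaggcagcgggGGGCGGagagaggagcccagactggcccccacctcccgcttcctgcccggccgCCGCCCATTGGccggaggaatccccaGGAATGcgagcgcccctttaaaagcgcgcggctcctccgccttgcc

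The FN1 window was 76.4% G and C with 32 CpG pairs and held a cyclic AMP response element whose first base lay at -183, counted back from the start. That element was in 1.65% of the 35116 promoter windows of the same length, whereas GC boxes, of which FN1 had 6, some sharing bases, were in 42.6%, and CCAAT in 32.0%. The POSTN window was 36.4% G and C with 1 CpG, against medians of 58.0% and 11.0 over all windows. It held an AP-1 element at -220 and a TATA element at -29, present in 6.57% and 6.80% of windows. The same TATA element was found before THBS2. TATAAA was the only form of it searched, and the windows of FN1 and TNC hold the letters TATAAG. THBS1 had a TEAD element at -46, which was also found before FBN1, SPARC and THBS2 and in 11.9% of all windows, and GC boxes were found before THBS1, TGFBI, TNC, FBN2 and VCAN as well as FN1. None of the 10 windows held GACGTG, the only form of the hypoxia response core searched, which 6.50% of windows held. Shorter forms such as ACGTG were not searched, and the windows of FBN2 and THBS2 hold those letters. No searched motif was shared by all 6 genes that stood higher, and a match is a stretch of letters, not a measured binding site.

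Thrombospondin 1, the product of THBS1 (ENSG00000137801, chromosome 15, 39581079 to 39599466, plus strand), binds many matrix proteins and can activate latent TGF-beta. Untreated libraries held 14.5, 37.0 and 18.7 CPM and Supinoxin libraries 110, 109 and 105 CPM. All Supinoxin libraries were higher, by 2.83-fold between the nearest ones, but untreated replicate 2 was 2.56-fold above untreated replicate 1. The log2 fold change was 2.21 (SE 0.30), the widest error among the 8, and it was 2.71 (SE 0.16) without untreated replicate 2. Its paralogue THBS2 had no count in any library. FSIP1, on the opposite strand, shares 4.89% of the exonic bases of THBS1; at 147 to 226 counts per library it was not called (log2 fold change -0.05, edgeR adjusted p = 0.839), and THBS1-AS1 was listed at 0. For FBN2 the shared part with SLC27A6 on the opposite strand was 0.314%. SLC27A6 was called lower (log2 fold change -0.77, edgeR adjusted p = 0.0245).

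Fibrillin 2, the fibrillin best known from fetal tissue, is encoded by FBN2 (ENSG00000138829, chromosome 5, 128257909 to 128659185, minus strand). It stood at 140.5, 221.5 and 198 CPM in untreated libraries and 837, 815 and 849 CPM with Supinoxin. The Supinoxin libraries agreed closely, with a coefficient of variation of 2.07% against 22.3% in untreated cells, and the groups were separate. Over all 6 libraries FBN2 had the highest mean CPM of the 10 genes, although TGFBI and SPARC were above it in untreated cells at 253 and 201.5 against 187 CPM, and its log2 fold change was 2.16 (SE 0.18). Fibrillin 1, the main fibrillin of adult tissue, is encoded by FBN1 (ENSG00000166147, chromosome 15, 48408313 to 48645721, minus strand). It went from 21.1, 40.1 and 31.3 CPM to 113, 116 and 113 CPM, a log2 fold change of 1.89 (SE 0.21), again without overlap. FBN2 counts exceeded FBN1 counts by 5.52 to 6.64 times in untreated and 7.01 to 7.50 times in Supinoxin libraries.

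VCAN (ENSG00000038427, chromosome 5, 83471618 to 83582303, plus strand) encodes versican. Its level was 28.1, 36.5 and 40.3 CPM in untreated and 177, 161 and 165.5 CPM in Supinoxin libraries, with no overlap. The log2 fold change was 2.26 (SE 0.16). VCAN was the only one of the 8 in which untreated replicate 3 rather than replicate 2 was highest. The antisense gene VCAN-AS1 was listed at 0, and the gene next to it, HAPLN1, which encodes a link protein that fastens versican to hyaluronan, went the other way, as given below with its list.

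SPARC (ENSG00000113140, chromosome 5, 151661096 to 151686975, minus strand) encodes osteonectin, a collagen-binding protein that counters cell adhesion. Untreated libraries held 191, 234 and 179 CPM and Supinoxin libraries 117, 128 and 135 CPM. Every Supinoxin library lay below every untreated one, and the log2 fold change was -0.67 (SE 0.14). TGFBI (ENSG00000120708, chromosome 5, 136028988 to 136063818, plus strand), named for its induction by TGF-beta, encodes a paralogue of periostin. It stood at 251, 291 and 218 CPM in untreated libraries and at 290.3, 312 and 305 CPM with Supinoxin, so untreated replicate 2 just overlapped the lowest Supinoxin library. Its log2 fold change of 0.26 (SE 0.14) was not called with TMM scaling but was with library size alone (0.39), and it was 0.01 once trends with length and GC content were removed.

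TNC (ENSG00000041982, chromosome 9, 115019575 to 115118207) and THBS2 (ENSG00000186340, chromosome 6, 169215780 to 169254050), both on the minus strand, were listed at 0 in all 6 libraries and were not tested. The ribosomal protein genes RPL15 and RPS4X and the succinate dehydrogenase gene SDHA were also listed at 0. Most dividing cells express these, so a 0 here is not taken to mean that a transcript is absent. No gene on the same strand shares exonic bases with any of the 10 genes in GENCODE 44, while 31.2% of the exonic bases of THBS2 overlap THBS2-AS1, itself listed at 0.

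**Figure D2:**
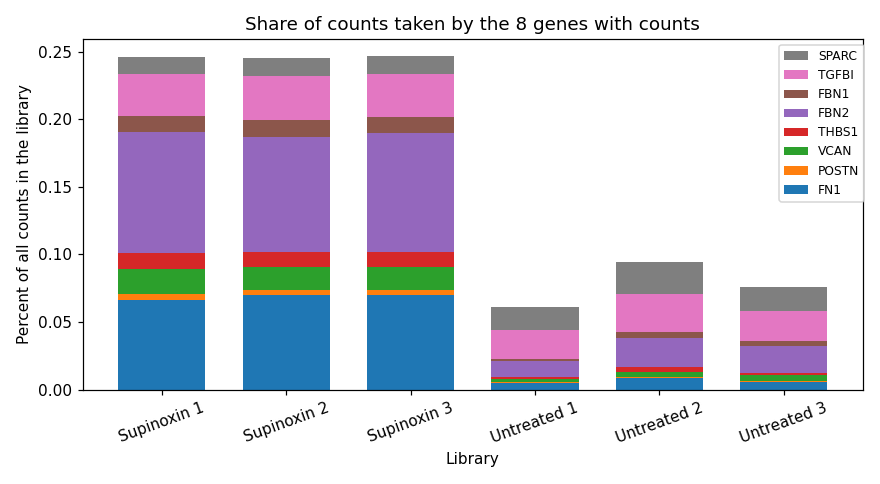
Percent of all counts in each library (stacked bars from 0) taken by the 8 genes with counts. The total is 0.0608% to 0.0941% in untreated and 0.245% to 0.247% in Supinoxin libraries, and FN1 and FBN2 make up most of the added part.

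Taken as a group, the 10 genes held 0.0608%, 0.0941% and 0.0761% of all counts in untreated replicates 1, 2 and 3 and 0.246%, 0.245% and 0.247% with Supinoxin. The make-up of this sum differed. TGFBI and SPARC gave 29.2% to 35.5% and 23.9% to 27.0% of it in untreated cells, and 12.6% to 13.3% and 5.05% to 5.67% with Supinoxin. FN1 went from 7.78% to 9.19% of the sum to 26.9% to 28.5%, and FBN2 from 19.8% to 26.5% to 34.7% to 36.3%. FN1 counts were 0.304 to 0.374 of SPARC counts in untreated libraries and 5.00 to 5.31 times SPARC counts with Supinoxin.

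Per kilobase of exonic length (RPKM on the TMM scale), SPARC was highest in untreated cells at 43.4 ± 6.26, followed by TGFBI at 32.8 ± 4.70, FBN2 at 10.5 ± 2.34 and FN1 at 3.95 ± 0.989 (SD, n = 3). Lower levels were measured for THBS1 at 2.55 ± 1.31, VCAN at 2.38 ± 0.425, FBN1 at 1.67 ± 0.513 and POSTN at 0.806 ± 0.147 RPKM. The ranges of FN1 and THBS1, of THBS1 and VCAN and of VCAN and FBN1 overlapped. Within each untreated library FN1 was above THBS1 and VCAN above FBN1, while the order of THBS1 and VCAN changed between libraries. With Supinoxin the order began with FBN2 at 46.7 ± 0.967 RPKM, then TGFBI at 39.2 ± 1.43, FN1 at 38.0 ± 1.78 and SPARC at 27.3 ± 2.03. The ranges of TGFBI and FN1 overlapped, but TGFBI was above FN1 within each Supinoxin library. THBS1 at 11.8 ± 0.321 and VCAN at 11.4 ± 0.587 overlapped, and POSTN at 7.03 ± 0.611 lay above FBN1 at 6.17 ± 0.0956 RPKM. Length matters to this order: per kilobase of the canonical transcript, a choice made after seeing the data, TGFBI was above SPARC in untreated cells (93.4 against 58.4 RPKM) and highest with Supinoxin at 111.5, with FN1 at 78.0 and FBN2 at 76.3.

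Variation within groups followed the libraries. Untreated replicate 2 was highest for 7 of the 8 genes, and untreated replicate 1 was lowest for 6, with untreated replicate 3 lowest for SPARC and TGFBI. The coefficient of variation was larger in untreated than in Supinoxin cells for all 8, with medians of 20.3% and 4.17%. Over all tested genes it was larger in untreated cells for 85.7%, with medians of 20.7% and 6.35%, so this spread is a feature of the libraries at large. Over the 6 libraries, the genes whose log2 CPM followed FBN2 most closely among 9003 genes with a mean of at least 10 CPM were MYO1E, ZFYVE26 and LMLN, with Pearson correlations of 0.9997, 0.9996 and 0.9995; the points share the difference between the groups.

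**Figure D3:**
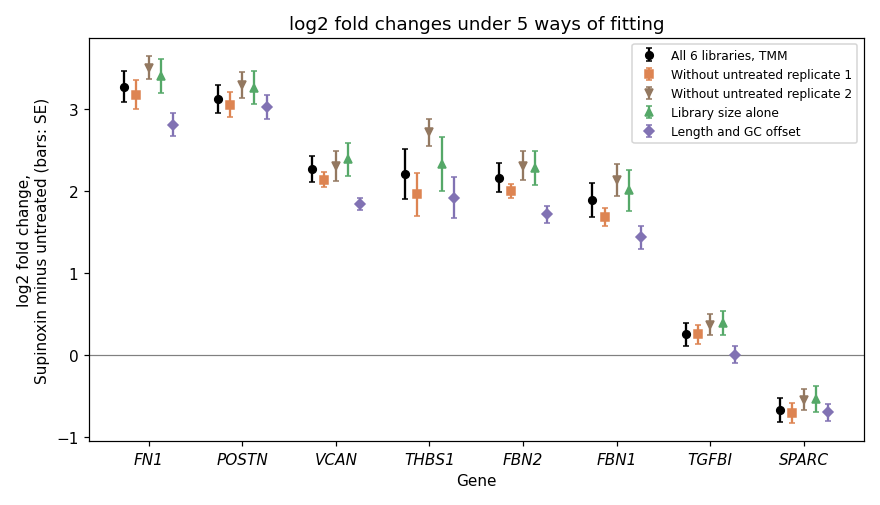
log2 fold change of each gene (points, bars are the standard error) from all 6 libraries, after leaving out untreated replicate 1 or 2, after scaling by library size only, and after removing trends in length and GC content. With the offset FN1 is at 2.81 and FBN1 at 1.43; TGFBI moves between 0.01 and 0.39 and SPARC stays below 0 in these fits.

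With trends in exonic length and GC content removed from each library, log2 fold changes were 2.81 for FN1, 3.02 for POSTN, 1.91 for THBS1, 1.43 for FBN1, 1.71 for FBN2, 1.84 for VCAN and -0.70 for SPARC. Without untreated replicate 1, the corresponding values were 3.17, 3.05, 1.96, 1.68, 2.00, 2.14 and -0.70. The genes beside these on the chromosome did not share one direction. Taken were the nearest tested protein-coding genes that do not overlap the gene itself, 1 on each side of the 8. Of these 16, 5 were called higher, 7 lower and 4 not called. FSIP1 and SLC27A6, which overlap THBS1 and FBN2, were left out. Over all tested genes 23.4% were called higher and 25.2% lower. The 16 had a median log2 fold change of 0.13, and an effect of position was not tested. FN1 lies 10667 bases from ATIC, a purine synthesis enzyme gene that fell (log2 fold change -0.45, edgeR adjusted p = 0.0183), and FBN2 68232 bases from SLC12A2, an ion cotransporter gene that rose (0.94, adjusted p = 0.00156).

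The other genes of these pathways were taken from 6 lists of 132 genes that leave out the 10, and were tested in the same fit. These lists too were chosen with earlier results of these data known. Their counts, calls and adjusted p-values are therefore a description of these libraries and no independent support. Of 89 that passed the filter, 32 rose (36.0%) and 18 fell (20.2%), beside 23.4% and 25.2% of all tested genes, with a median log2 fold change of 0.20. Leaving out any single Supinoxin library gave 24 to 26 higher and 13 or 14 lower. For each list, genes of smallest p are given, and further called genes were named after their values were seen.

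Among other matricellular genes, 2 of 11 tested rose and 3 fell, with a median of -0.15. SPARCL1, whose product is the closest relative of SPARC, rose from 0.934 ± 0.294 to 5.58 ± 0.228 CPM (log2 fold change 2.58, SE 0.24, edgeR adjusted p = 0.000121), in the opposite direction to SPARC. FSTL1, a follistatin-like member of the SPARC family, rose by 1.09 (adjusted p = 0.000941). The testican genes SPOCK3 and SPOCK1, whose products are proteoglycans with a SPARC-like domain, and SMOC1 fell by 2.38, 0.81 and 1.80. The YAP targets CCN1, at 163 ± 4.46 against 181 ± 40.1 CPM, and CCN2 were not called, and THBS3 and THBS4, the other thrombospondins tested, had log2 fold changes of 0.21 and 0.20 with overlapping groups. SPP1 and CCN5 were listed at 0.

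Genes of microfibrils and elastic fibres went both ways: 5 of 18 rose and 6 fell, with a median of 0.09. LOX, which cross-links elastin and collagen, rose from 50.1 ± 14.7 to 155 ± 5.27 CPM (log2 fold change 1.63, SE 0.20, edgeR adjusted p = 0.00036). LTBP1, which ties latent TGF-beta to fibrillin and fibronectin, rose from 128 ± 27.5 to 267 ± 9.52 CPM (1.06, adjusted p = 0.00122), and LOXL4, LOXL2 and LTBP3 rose by 0.83, 0.57 and 0.58. EFEMP1, a fibulin gene, fell by 0.66 (adjusted p = 0.00344), and MFAP2, which encodes a glycoprotein bound to fibrillin, fell by 1.11. Elastin itself (ELN) was at 48.8 ± 2.91 against 48.1 ± 18.5 CPM. Without any single Supinoxin library 3 fell, and without untreated replicate 1 8 rose.

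In the proteoglycan and hyaluronan list 4 of 12 rose and 3 fell, with a median of 0.39. CHSY1, which builds the chondroitin chains carried by versican, rose from 38.7 ± 7.04 to 96.2 ± 3.41 CPM (log2 fold change 1.31, SE 0.15, edgeR adjusted p = 0.000292), and CD44, the hyaluronan receptor, rose by 0.85. HSPG2 (perlecan) and BCAN (brevican) rose by 0.79 and 0.71. FMOD (fibromodulin) fell by 3.25 from 1.73 ± 0.666 to 0.180 ± 0.0833 CPM (adjusted p = 0.000583), and the link protein genes HAPLN1 and HAPLN3 fell by 1.73 and 1.24. HAPLN1 was low throughout, at 1.34 ± 0.0469 CPM in untreated and 0.401 ± 0.216 CPM in Supinoxin libraries. Without untreated replicate 1, with no filter or with the length and GC offset, 7 rose.

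Receptors for these proteins had a median of 0.11: of 13 tested, 4 rose and 1 fell. ITGAV and ITGB5, which together form a receptor for vitronectin and other matrix proteins, rose from 7.80 ± 2.75 to 45.1 ± 4.23 CPM and from 17.8 ± 2.83 to 78.0 ± 3.79 CPM. Their log2 fold changes were 2.53 (SE 0.25) and 2.13 (SE 0.15), with edgeR adjusted p of 0.000132 and 2.77e-05. SDC3, a syndecan gene, rose by 0.83 and ITGB1 by 0.60, while SDC4, a syndecan that works with integrins on fibronectin, fell by 0.61. ITGA5, ITGB3 and ITGB6 were listed at 0. Without untreated replicate 1, 4 rose and 2 fell, and without untreated replicate 3, 6 rose and 2 fell. With the length and GC offset 3 rose and 4 fell.

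**Figure D4:**
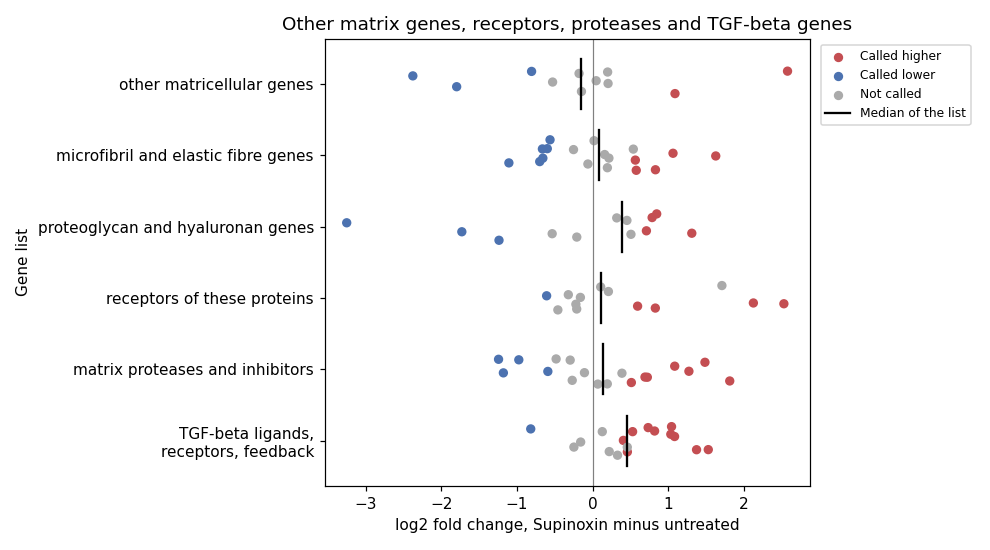
log2 fold changes of tested genes in the 6 lists, coloured by call (red higher, blue lower, grey not called), with black lines at the list medians; vertical scatter has no meaning. The medians run from -0.15 for the other matricellular genes to 0.46 for the TGF-beta genes.

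Matrix proteases and their inhibitors rose in 7 of 18 and fell in 4, with a median of 0.13. The serpin gene SERPINE2, whose product inhibits thrombin and plasminogen activators, rose from 19.8 ± 2.87 to 69.6 ± 3.00 CPM (log2 fold change 1.82, SE 0.14, edgeR adjusted p = 5.34e-05). ADAMTS4, a protease that cuts versican and aggrecan, rose by 1.49 (SE 0.15, adjusted p = 0.000193). The membrane protease gene MMP14 rose by 1.09, while MMP15, MMP11, PLAUR and ADAMTS1 fell by 1.18, 1.24, 0.98 and 0.59. TIMP2 was not called at -0.11, and TIMP1, TIMP3 and TIMP4 were listed at 0.

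In the list of TGF-beta ligands, receptors and feedback genes, 10 of 17 rose and 1 fell, with a median of 0.46. The inhibitory SMAD genes SMAD6 and SMAD7 rose from 22.8 ± 3.67 to 65.8 ± 2.35 and from 26.4 ± 2.68 to 54.4 ± 2.59 CPM (log2 fold changes 1.53 and 1.05, edgeR adjusted p = 0.000118 and 0.000368). The ligand gene TGFB2 rose from 73.2 ± 13.0 to 190 ± 10.2 CPM (1.38, SE 0.16, adjusted p = 0.000287), whereas TGFB1 fell by 0.82 (adjusted p = 0.0331) and was not called once any single Supinoxin library was left out. TGFBR2 and SMAD4 were not called, at 0.33 and 0.22. The number that rose was 6 without Supinoxin replicate 1 or 3.

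Marker lists of other cell types were measured beside these results. Fibroblast markers summed to 9615 to 10610 CPM with Supinoxin and 4016 to 5666 CPM in untreated cells, nearly all from the collagen genes COL1A1 and COL1A2, which rose by 1.08 and 1.24; in this list 2 of 5 tested genes rose and 1 fell. THY1 and ACTA2 were listed at 0, and DCN and LUM, which are also in the proteoglycan list, and PDGFRA had at most 17 counts in a library. Endothelial markers summed to 0.773 to 1.09 CPM with Supinoxin and 0.619 to 0.803 CPM without, and TEK, the 1 gene tested of 6, rose by 0.99. Leukocyte markers summed to 1.57 to 2.12 and 1.89 to 2.37 CPM; of 4 tested, only CD3E, with at most 18 counts in a library, was called, and it fell. Epithelial markers summed to 172 to 185.5 CPM with Supinoxin and 205 to 355 CPM in untreated cells, mostly from KRT8, KRT7 and KRT18, which were not called. Within that list EPCAM fell from 10.4 ± 1.23 to 1.22 ± 0.196 CPM (log2 fold change -3.08, SE 0.20, edgeR adjusted p = 1.89e-05) and CLDN4 rose by 0.78. Neuroendocrine markers summed to 45.6 to 48.8 and 55.5 to 87.0 CPM and went both ways: NCAM1, DLL3 and INSM1 fell by 1.53, 0.90 and 0.72, and CHGB rose by 1.11. The part of these differences in the results above was not tested.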

How the data were processed

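The deposited values are raw counts, whole numbers for each Ensembl identifier in each library, in 1 table. Columns were matched to samples by name, and columns named WT were taken as untreated because the others name Supinoxin. Per the submitters' processing notes, which give no order, STAR, featureCounts, fastp, edgeR, DESeq2 and Trim Galore 0.4.4 were used with GRCh38; library type, annotation, strand setting, treatment time and vehicle were not stated in those sources. Without strand, reads of antisense partners cannot be told apart.

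Symbols, positions and exonic lengths came from GENCODE 44 (60463 identifiers matched), and all 10 genes had a RefSeq promoter entry. In R 4.3.3, edgeR 4.0.16 (filterByExpr, TMM, robust quasi-likelihood test, treatment as the single term) was fitted to all 15947 genes left, with Benjamini-Hochberg adjustment and a threshold of 0.05, after a check on simulated data. Fold changes are relative to the TMM scale. Alternatives were DESeq2 1.42.0, library size alone, 2 other filters, the replicate block, an offset for length and GC content (limma 3.58.1), and leaving out each library. Named genes were the 10, the 3 of smallest p in each of 6 lists, and the 3 most like the member of highest CPM; some results under this rule are not reported here. The members and lists were chosen with earlier results of these data known.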

Additional observations from a re-analysis of the deposited data

How the results depend on the processing

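Of the 10 genes, 6 were called higher and 1 lower in each of the 12 alternatives, except that TGFBI joined with library size alone, giving 7 higher. Over all 13 fits the log2 fold change ran from 2.81 to 3.50 for FN1, 3.02 to 3.29 for POSTN, 1.91 to 2.71 for THBS1, 1.43 to 2.13 for FBN1, 1.71 to 2.31 for FBN2, 1.84 to 2.39 for VCAN, -0.75 to -0.53 for SPARC and 0.01 to 0.39 for TGFBI. With library size alone, the all-gene median shifted by 0.14 (log2). The 18 list genes of smallest p, 3 in each list, kept their direction and call in all 216 values. They were picked by p in the main fit of these same libraries, so that choice largely set this outcome. Leaving out 1 library gave 2556 to 4334 genes higher and 2789 to 4477 lower; for the 6 lists together it gave 24 to 38 higher and 13 to 22 lower.

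Deviations of same-numbered libraries correlated at -0.13, -0.04 and -0.03, so the numbers were not taken to pair the samples. With the replicate block, 3588 genes were called higher and 3650 lower, against 3732 and 4018, and 34 and 18 list genes, against 32 and 18. The treatment and the trend of fold change with length cannot be told apart in this design. The 2 genes listed at 0 allow no fold change. Per canonical transcript length, the RPKM order of TGFBI, SPARC, FBN2 and FN1 changed as given above.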
